A study of Homo sapiens with 9 samples.

Results

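The heat shock chaperones described here are 10 genes taken by name, HSPA1A, HSPA1B, HSPA8, HSPH1, DNAJB1, DNAJA1, HSP90AA1, HSP90AB1, HSPB1 and HSPE1, out of 27615 genes in the longest of the deposited gene lists. Their mRNA was measured by RNA-seq in MDA-MB-231, an established human cell line of triple-negative breast cancer. Cells had received the vehicle DMSO, rimonabant, an antagonist of cannabinoid receptor 1, or TXX-1-10, a compound derived from rimonabant, and each treatment gave 3 libraries. The labels name no genetic change in these cells, and neither the dose nor the time of treatment before sequencing is given in the sources used here. No label says whether the 3 libraries of a treatment came from separate cultures, so the p-values measure the spread between libraries, which may be technical.

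Chaperones bind unfolded proteins and help them to fold. HSP70 proteins (HSPA1A, HSPA1B, HSPA8) hold short stretches of a client protein in a cycle driven by ATP, J proteins (DNAJB1, DNAJA1) bring the client and trigger ATP hydrolysis, and HSP110 (HSPH1) releases the nucleotide. HSP90 (HSP90AA1, HSP90AB1) then matures clients such as kinases and steroid receptors, the small heat shock protein HSPB1 keeps unfolded protein soluble, and HSPE1 is the lid of the mitochondrial chaperonin whose barrel is HSPD1. When unfolded protein accumulates, the transcription factor HSF1 binds heat shock elements in front of many of these genes. HSPA1A, HSPA1B and DNAJB1 are textbook stress-inducible members, whereas HSPA8 and HSP90AB1 are known as constitutive forms, and tumour cells often carry high levels of several of them.

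Some of these genes rose and others fell. Of the 9 tested in all 9 libraries, 4 rose and 3 fell under TXX-1-10, beside 30.5% and 43.8% of all 4236 genes tested. The share called, 7 of 9, was close to the 74.4% of all genes. Under TXX-1-10, the mRNA of HSPA1B rose 4.61-fold, that of HSPA1A 4.92-fold and that of DNAJB1 1.78-fold against vehicle, HSPH1 and DNAJA1 rose less, and HSPA8, HSP90AB1 and HSPE1 fell by 21.3%, 23.5% and 25.8%. Under rimonabant, HSPA1B rose 2.27-fold, HSPA1A, DNAJB1, HSPH1 and DNAJA1 rose by smaller factors, and HSPB1 fell by 32.6%. "Rose" and "fell" stand throughout for an adjusted p under 0.05 in edgeR's quasi-likelihood test with Benjamini-Hochberg adjustment over all genes tested.

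The library totals behind the authors' FPKM values (reads per kilobase of gene, scaled to the library total) ran from 17078370 to 19277808. Each gene list ends at a different low count, and a gene missing from a list is not taken as 0. All 10 chaperones were in 8 lists, and 9 of them were also in the list of rimonabant replicate 1, which holds 4237 genes. HSPA1A is missing there, so it was tested in a fit of 8 libraries and 9369 genes, and the other 9 in a fit of 9 libraries and 4236 genes. Rimonabant replicate 1 and TXX-1-10 replicate 3 stood apart from their groups: long genes had lower counts in these libraries (Spearman's rho across genes of -0.69 between gene length and the deviation from the group mean in both), so values are also given without them where that changes the call of a chaperone. The markers VIM, CD44, FN1, CAV1 and MSN were present in all 9 libraries at 20.8 to 329 FPKM, with a summed level of 752 to 772 under vehicle, 618 to 649 under rimonabant and 609 to 652 under TXX-1-10. The sum does not show each marker: over the 9 libraries CAV1 ran from 20.8 to 145 FPKM and FN1 from 21.1 to 63.6. VIM ran from 224 to 329 and MSN from 239 to 272. The luminal markers ESR1, PGR and CDH1 were at 0 to 0.0459 FPKM where listed, the immune marker PTPRC was at 0.0639 FPKM or less, PECAM1 and COL1A1 were at 0.798 FPKM or less, and CD3E was in no list. GATA3 (0.396 to 1.45 FPKM), EPCAM (4.47 to 5.37) and ERBB2 (6.996 to 9.52) were detected at low levels. The part of the lower summed marker level under both compounds in the results was not tested. The levels are shares of all mRNA in a library, and fewer cells with a transcript cannot be told apart from less of it per cell.

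All 10 genes had a promoter window in the RefSeq table (GRCh38.p14, 250 bases before to 50 bases after a start site), with 15 windows in all. The heat shock element was searched on both strands as 3 alternating units, GAANNTTCNNGAA or TTCNNGAANNTTC, and as 2 units, GAANNTTC or TTCNNGAA, where every match to 3 units also holds matches to 2. The 3 units stood in 4 of the 15 windows, 1 each of HSPA8, DNAJA1, HSP90AA1 and HSP90AB1, and in 0.490% of 35116 windows of all genes. The 2 units stood in 9 of the 15 windows, from 8 chaperones (all but HSPH1 and HSPE1), and in 13.5% of all windows. A match is a description of the letters and not a mapped site. HSPA1A and HSPA1B are shown because they are the genes that rose most and their upstream sequences are close to identical, with 93.6% of 251 aligned columns equal over 250 bases. The stretches lie at chr6:31815364-31815463 and chr6:31827560-31827659 on the plus strand, with the units in capitals.
HSPA1A: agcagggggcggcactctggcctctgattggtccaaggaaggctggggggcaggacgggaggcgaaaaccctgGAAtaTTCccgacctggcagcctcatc
HSPA1B: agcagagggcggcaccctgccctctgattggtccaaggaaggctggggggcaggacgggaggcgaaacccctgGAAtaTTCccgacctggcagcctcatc

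The next stretches are shown to set a gene that rose under TXX-1-10 (DNAJB1) beside genes that fell (HSPA8, HSP90AB1) or did not pass the test (HSP90AA1). They lie at chr19:14518456-14518485 and chr11:123062346-123062375 on the minus strand, at chr6:44247769-44247798 on the plus strand and at chr14:102087112-102087141 on the minus strand. The stretch of DNAJB1 holds 2 units, and the other stretches hold 3. Each of these windows holds a further match that is not shown, of 2 units in DNAJB1 and HSP90AA1 and of 3 units in HSPA8 and HSP90AB1.
DNAJB1: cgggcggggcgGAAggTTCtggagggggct
HSPA8: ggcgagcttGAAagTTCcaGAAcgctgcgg
HSP90AB1: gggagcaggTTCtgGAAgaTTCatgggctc
HSP90AA1: ggagggttcTTCcgGAAggTTCgggaggct
By these exact letters, genes with the 3 units included HSPA8 and HSP90AB1, which fell under TXX-1-10, and DNAJA1, which rose. The 3 units of DNAJA1 lie after the start site. HSPA1A and HSPA1B, which rose most, had matches to 2 units. Units that differ in a base were not searched for, and a link between the letters and the changes was not tested.

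In vehicle-treated cells HSP90AB1 had the highest level, 869.8 ± 1.74 FPKM (SD, n = 3 here and below), followed by HSP90AA1 at 525 ± 14.1 and HSPA8 at 515 ± 14.8, whose libraries overlapped. HSPB1 at 164 ± 9.52 and DNAJA1 at 121 ± 0.627 came next. DNAJB1 had 55.9 ± 1.27, HSPE1 36.4 ± 2.90 and HSPH1 33.9 ± 1.5, and the libraries of HSPE1 and HSPH1 overlapped. The inducible HSP70 genes had the lowest FPKM, HSPA1B at 23.5 ± 0.303 and HSPA1A at 4.39 ± 0.136. Most of their sequence is shared between them, and reads that match both may go uncounted. Their levels and ranks may therefore be too low beside those of the other genes. HSPA1B had rank 9 in this order under vehicle, rank 7 under rimonabant and rank 6 under TXX-1-10, where its 3 libraries lay above those of DNAJB1. Together HSP90AA1, HSP90AB1 and HSPA8 held 81.5% ± 0.454 of the summed FPKM of the 9 genes other than HSPA1A under vehicle, 81.4% ± 0.599 under rimonabant and 73.03% ± 0.429 under TXX-1-10. The TXX-1-10 share lay below every vehicle library (exact permutation test, two-sided p = 0.1, the smallest that 3 against 3 libraries can give).

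**Figure D1:**
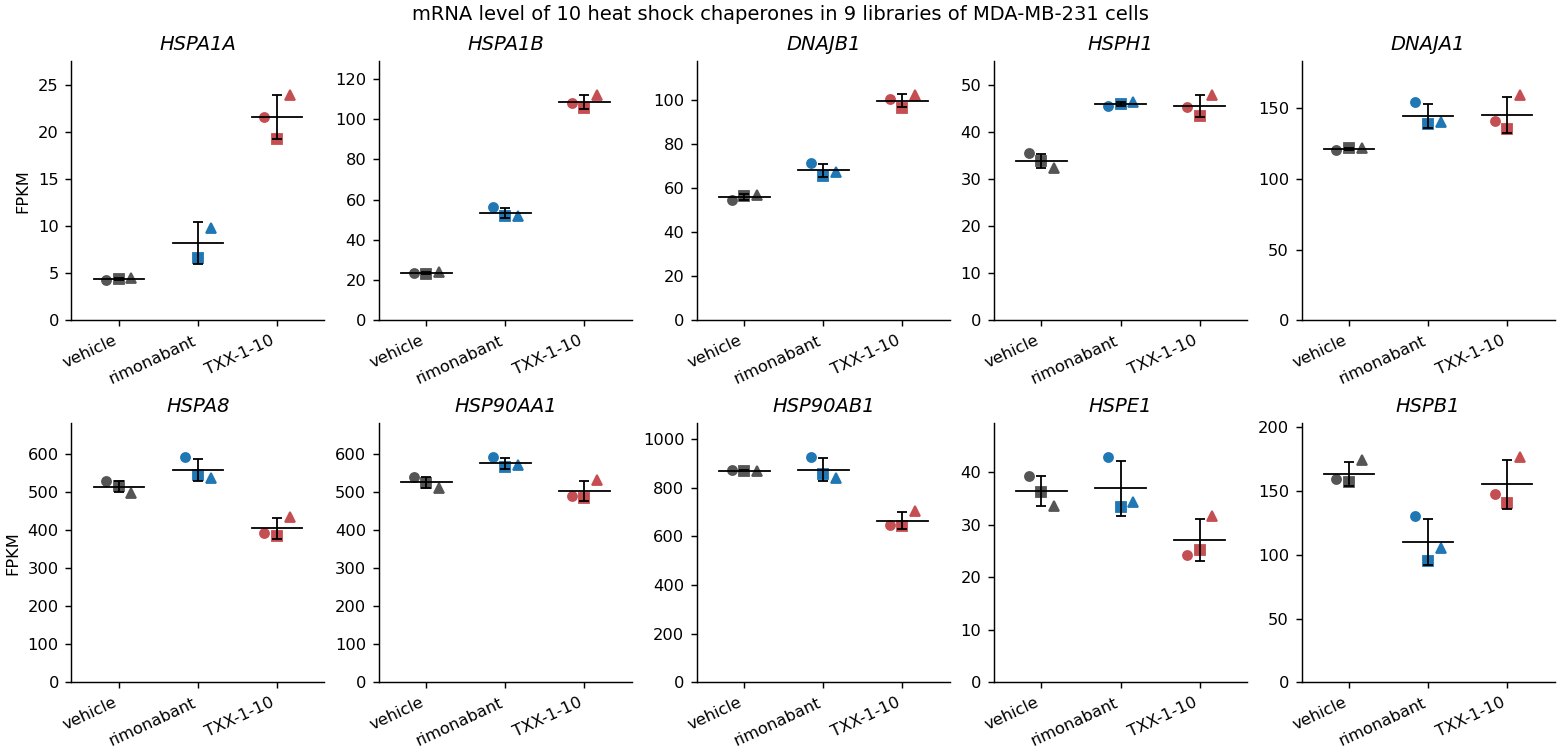
FPKM of each chaperone (vertical axis, from 0, own scale per gene) in the vehicle, rimonabant and TXX-1-10 libraries; circles, squares and triangles are replicates 1, 2 and 3, bars are mean ± SD, and HSPA1A has 2 rimonabant libraries. HSPA1B and DNAJB1 separate into 3 levels with no overlap, while HSPA8, HSP90AB1 and HSPE1 are lowest in the TXX-1-10 libraries.

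HSPA1B encodes a stress-inducible HSP70 and has 1 exon (ENSG00000204388, chr6:31827735-31830255, plus strand). Its FPKM was 23.4, 23.3 and 23.8 under vehicle, 56.1, 52.0 and 51.8 with rimonabant, and 108, 105 and 112 under TXX-1-10. The groups lay far apart, with the 3 libraries of each close together. The log2 fold change was 2.21 ± 0.0503 (SE) for TXX-1-10 against vehicle (adjusted p = 3.39e-10) and 1.18 ± 0.0496 for rimonabant against vehicle (adjusted p = 1.98e-07). TXX-1-10 exceeded rimonabant by 1.02 ± 0.0478 (95% confidence interval 0.917 to 1.13, adjusted p = 5.62e-08), and HSPA1B was the chaperone of the 9 that passed a fold change of 2 in each of the 3 comparisons.

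HSPA1A encodes almost the same protein from a gene of 1 exon that ends 9788 bases before HSPA1B (ENSG00000204389, chr6:31815464-31817946, plus strand). It had 4.27, 4.37 and 4.54 FPKM under vehicle, 6.61 and 9.80 under rimonabant replicates 2 and 3, and 21.6, 19.3 and 23.96 under TXX-1-10. These rest on 181 to 194 counts under vehicle and 881 to 1095 under TXX-1-10, and the groups did not overlap. In the 8 libraries it rose by 2.30 ± 0.132 (log2, adjusted p = 1.07e-08) under TXX-1-10 and by 0.90 ± 0.155 (adjusted p = 0.000635) under rimonabant. The difference between the compounds was 1.40 ± 0.139 (95% confidence interval 1.09 to 1.70, adjusted p = 3.63e-06). The rimonabant value depends on the library: 1.16 without replicate 2 and 0.59 without replicate 3.

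Of the windows of 100 bases in their transcripts, 69.9% in HSPA1A and 72.7% in HSPA1B recur unchanged in another gene, nearly all in each other. The way uniquely mapped reads were split between them is thus uncertain. Reads that match both may be missing from both, and the size of that loss was not tested. HSPA1A took 15.4% to 16.0% of the summed FPKM of the pair under vehicle and 15.5% to 17.6% under TXX-1-10. It took 11.3% and 15.9% in the rimonabant libraries that list it. For 920 of its 2521 exonic bases HSPA1B also shares the strand with the annotated gene AL671762.1.

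DNAJB1 encodes the J protein that works with inducible HSP70 (ENSG00000132002, chr19:14514770-14529770, minus strand). Its FPKM was 54.5, 56.4 and 56.9 under vehicle, 71.5, 65.5 and 67.2 with rimonabant, and 100.4, 96.5 and 102 under TXX-1-10. The 3 groups did not overlap and stood in the same order as for HSPA1B. It rose by 0.83 ± 0.0492 (log2) under TXX-1-10 (adjusted p = 1.38e-07) and by 0.28 ± 0.0491 under rimonabant (adjusted p = 0.00106). TXX-1-10 exceeded rimonabant by 0.55 ± 0.0489 (adjusted p = 5.37e-06).

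DNAJA1 encodes a J protein of the cytosol with a broad range of clients (ENSG00000086061, chr9:33025211-33039907, plus strand). It had 121, 122 and 122 FPKM under vehicle, 154, 139 and 140.2 with rimonabant, and 141, 135 and 159 under TXX-1-10. Both compounds lay above vehicle in every library, and the libraries of the compounds overlapped. It rose by 0.26 ± 0.0680 (log2) under TXX-1-10 (adjusted p = 0.00594) and by 0.25 ± 0.0680 under rimonabant (adjusted p = 0.0121). The compounds differed by 0.007 (95% confidence interval -0.145 to 0.159, adjusted p = 0.936), the sign turned without rimonabant replicate 2 (-0.021) or 3 (-0.013) or TXX-1-10 replicate 3 (-0.066), and the difference passed with the length offset (0.16).

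HSPH1, the HSP110 nucleotide exchange factor (ENSG00000120694, chr13:31134974-31162388, minus strand), had 35.4, 33.8 and 32.5 FPKM under vehicle. It had 45.4, 46.0 and 46.4 with rimonabant, as well as 45.3, 43.4 and 47.9 with TXX-1-10. Here too both compounds lay above every vehicle library and overlapped with each other. The log2 fold change was 0.43 ± 0.0527 under TXX-1-10 (adjusted p = 3.68e-05) and 0.44 ± 0.0527 under rimonabant (adjusted p = 0.000115). The interval of the difference between the compounds was -0.131 to 0.103 (log2, adjusted p = 0.832), and its sign turned with TMM or DESeq2 scaling.

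HSPA8 encodes the constitutive HSP70, HSC70 (ENSG00000109971, chr11:123057489-123063230, minus strand). Its FPKM was 529, 516 and 499 under vehicle, 593, 545 and 538 with rimonabant, and 394, 386 and 436 under TXX-1-10. The TXX-1-10 libraries lay below all others, in contrast to those of HSPA1A and HSPA1B. HSPA8 fell by 0.34 ± 0.0673 on the log2 scale against vehicle (adjusted p = 0.000946) and by 0.46 ± 0.0673 against rimonabant (adjusted p = 0.000179). Rimonabant against vehicle gave 0.12 ± 0.0672 (adjusted p = 0.172), which passed with DESeq2 and with an offset for gene length.

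HSP90AB1 encodes constitutive HSP90 beta (ENSG00000096384, chr6:44246166-44253888, plus strand). It had 872, 868 and 869 FPKM under vehicle, 926, 857 and 839.5 with rimonabant, and 647, 644 and 704 under TXX-1-10. The vehicle libraries lay inside the range of the rimonabant libraries, and the TXX-1-10 libraries lay below both. It fell by 0.39 ± 0.0615 (log2) against vehicle (adjusted p = 0.000225) and by 0.39 ± 0.0615 against rimonabant (adjusted p = 0.000281). Rimonabant differed from vehicle by 0.0073 (95% confidence interval -0.130 to 0.144, adjusted p = 0.933).

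HSP90AA1 encodes HSP90 alpha, the form known to rise with stress (ENSG00000080824, chr14:102080738-102139699, minus strand). Its FPKM was 539, 524 and 511 under vehicle, 592, 564 and 570 with rimonabant, and 489, 484 and 531 under TXX-1-10. The TXX-1-10 libraries overlapped with vehicle, and the rimonabant libraries lay above both groups. The log2 fold change was -0.065 ± 0.0589 under TXX-1-10 (adjusted p = 0.342) and 0.13 ± 0.0589 under rimonabant (adjusted p = 0.0878). HSP90AA1 was 0.20 ± 0.0589 lower under TXX-1-10 than under rimonabant on the log2 scale (adjusted p = 0.0139). Several of its calls changed with the setting. The sign against vehicle under TXX-1-10 turned to 0.034 with TMM and 0.035 with DESeq2, and it fell by 0.11 without rimonabant replicate 1 and TXX-1-10 replicate 3. The rise under rimonabant passed with TMM (0.14), DESeq2 (0.15) and the length offset (0.12), without TXX-1-10 replicate 3 (0.13), and without that library and rimonabant replicate 1 (0.11). The difference between the compounds was lost with TMM (-0.11), without TXX-1-10 replicate 1 (-0.18) or 2 (-0.17), and in a fit of those groups alone (-0.20).

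HSPE1 (ENSG00000115541, chr2:197499994-197503457, plus strand) had 39.4, 36.3 and 33.6 FPKM under vehicle, 42.9, 33.4 and 34.4 with rimonabant, and 24.3, 25.3 and 31.6 under TXX-1-10. The TXX-1-10 libraries lay below all others, with replicate 3 the highest of the 3. HSPE1 fell by 0.43 ± 0.122 (log2) against vehicle (adjusted p = 0.00891) and by 0.45 ± 0.122 against rimonabant (adjusted p = 0.00848). Rimonabant against vehicle gave 0.019 ± 0.120 (adjusted p = 0.909), and the sign turned to -0.10 without rimonabant replicate 1. The gene lies inside the span of HSPD1 on the opposite strand and shares 281 exonic bases with it. With no strand setting stated, reads from these bases cannot be told apart, and the HSPE1-MOB4 readthrough holds 11.05% of its windows of 100 bases.

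HSPB1 (ENSG00000106211, chr7:76302544-76304295, plus strand) encodes HSP27 and was the chaperone that fell under rimonabant. It had 159, 157 and 175 FPKM under vehicle, 131, 95.2 and 105 with rimonabant, and 148, 141 and 177 under TXX-1-10. The rimonabant libraries lay below all others, and the libraries of vehicle and TXX-1-10 overlapped. HSPB1 fell by 0.57 ± 0.118 (log2) under rimonabant (adjusted p = 0.00298). TXX-1-10 exceeded rimonabant by 0.49 ± 0.118 (adjusted p = 0.00423). TXX-1-10 against vehicle gave -0.076 ± 0.117 (adjusted p = 0.575), whose sign turned with TMM and DESeq2, and which passed at -0.18 without rimonabant replicate 1 and TXX-1-10 replicate 3.

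**Figure D2:**
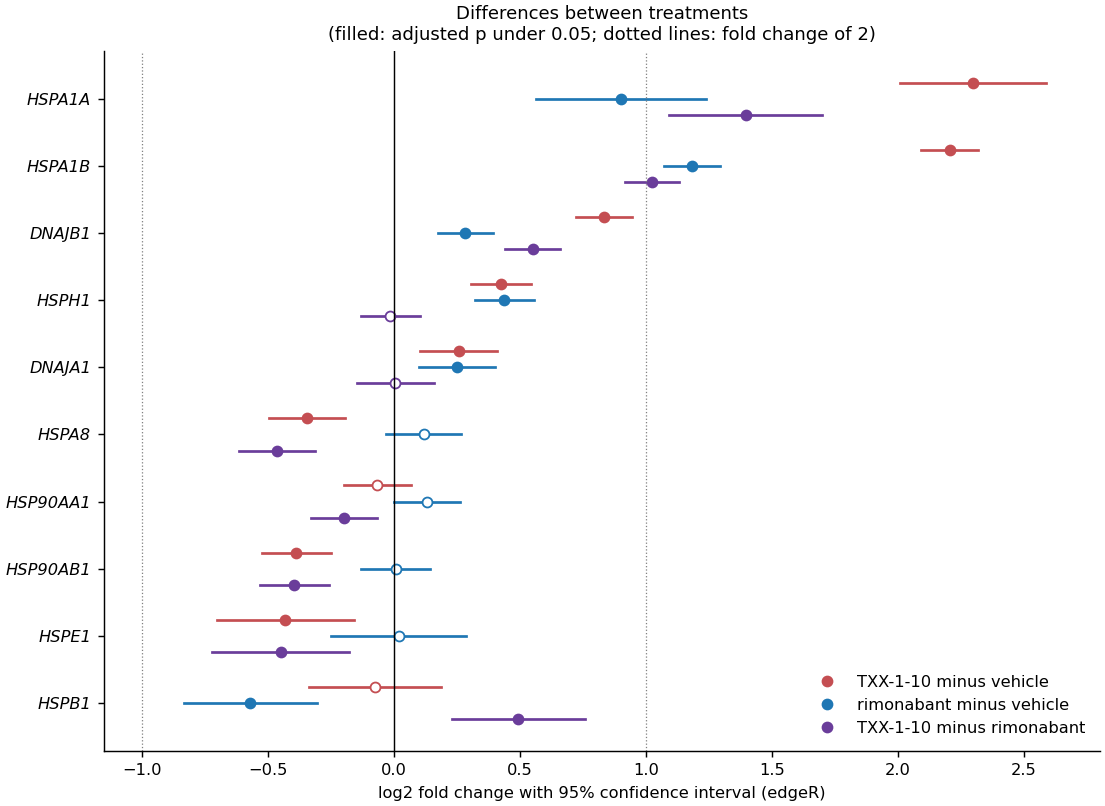
Log2 fold change of each chaperone (horizontal axis) with its 95% confidence interval for TXX-1-10 against vehicle (red), rimonabant against vehicle (blue) and TXX-1-10 against rimonabant (purple); filled points passed an adjusted p of 0.05. HSPA1A and HSPA1B lie above 2 under TXX-1-10, and HSPA8, HSP90AB1 and HSPE1 lie between -0.34 and -0.43.

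Of the 9 chaperones tested in 9 libraries, 4 rose and 3 fell under TXX-1-10, where 74.4% of all 4236 genes tested passed (30.5% higher and 43.8% lower). Under rimonabant 4 rose and 1 fell, beside 48.9% of all genes (23.7% higher and 25.2% lower). Between TXX-1-10 and rimonabant 3 were higher and 4 lower, beside 64.5% of all genes (25.1% higher and 39.4% lower). The shares of the chaperones called, 7 of 9, 5 of 9 and 7 of 9, were close to these backgrounds. HSPA1B was the chaperone of the 9 called past a fold change of 2, a size that 11.8%, 1.13% and 5.93% of all genes reached in the 3 comparisons. In the fit of 8 libraries HSPA1A passed the test in each comparison, beside 75.3%, 46.5% and 60.6% of 9369 genes. It was also past a fold change of 2 under TXX-1-10 against vehicle and against rimonabant, a size that 12.7%, 1.49% and 6.41% of those genes reached in the 3 comparisons. The groups of 7 of the 9 chaperones did not overlap in each comparison, as was so for 78.7%, 61.1% and 63.6% of all genes. The median of the 9 log2 fold changes was -0.065, 0.13 and -0.014, beside -0.095, -0.020 and -0.077 over all genes. The chaperones' median turned to 0.034 under TXX-1-10 against vehicle and to 0.072 between the compounds with TMM, and to 0.035 and 0.073 with DESeq2. TMM scaling brought the median of all genes under TXX-1-10 against vehicle to 0.0038 and DESeq2 to 0.0056, a shift of 0.0986 and 0.1004. The split of all calls moved from 1294 higher and 1857 lower to 1568 and 1570 with TMM and 1616 and 1627 with DESeq2. For TXX-1-10 against rimonabant it moved from 1065 higher and 1667 lower to 1381 and 1349 with TMM and 1468 and 1432 with DESeq2. Under TXX-1-10 against vehicle the 4 rises and 3 falls of the chaperones were also 4 and 3 with TMM, DESeq2 and the length offset, and 4 and 5 without rimonabant replicate 1 and TXX-1-10 replicate 3.

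Ratios of 2 chaperones within a library do not depend on the library total. The summed FPKM of HSPA1A and HSPA1B over HSPA8, inducible over constitutive HSP70, was 0.0523, 0.0535 and 0.0568 under vehicle and 0.108 and 0.115 in the 2 rimonabant libraries that list HSPA1A. Under TXX-1-10 it was 0.329, 0.323 and 0.312, which is 5.92 times the vehicle ratio. Because reads shared by HSPA1A and HSPA1B may go uncounted, the level of the ratio may be too low in every group. HSPA1B alone over HSPA8, a ratio added after the values were seen, was 0.0457 ± 0.00182 under vehicle, 0.0955 ± 0.000807 under rimonabant and 0.268 ± 0.00975 under TXX-1-10. The 3 groups did not overlap in either form of the ratio.

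HSP90AA1 over HSP90AB1 was 0.618, 0.604 and 0.587 under vehicle, 0.639, 0.659 and 0.678 with rimonabant, and 0.756, 0.752 and 0.754 under TXX-1-10. The 3 groups were ordered with no overlap, although HSP90AA1 itself did not pass the test against vehicle under TXX-1-10. DNAJB1 over DNAJA1 was 0.452 to 0.468 under vehicle, 0.464 to 0.479 under rimonabant and 0.642 to 0.714 under TXX-1-10, so that vehicle and rimonabant overlapped and TXX-1-10 lay above both. HSPE1 over HSPD1, lid over barrel of the mitochondrial chaperonin, was 0.217 to 0.239, 0.219 to 0.248 and 0.194 to 0.221, and all groups overlapped. Under TXX-1-10 only replicate 3 (0.221) overlapped with the other groups, and replicates 1 and 2 (0.194 and 0.204) lay below them. Replicate 3 is a library in which long genes had lower counts, and HSPE1 has 1977 bases against 4245 for HSPD1. The part of this length pattern in the ratio was not tested. In the exact two-sided permutation test each 3 against 3 comparison without overlap gave the smallest possible p of 0.1, and 0.2 after adjustment over the 12 comparisons. With 2 rimonabant libraries the smallest p is 0.2, so no ratio can reach 0.05 in this test.

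**Figure D3:**
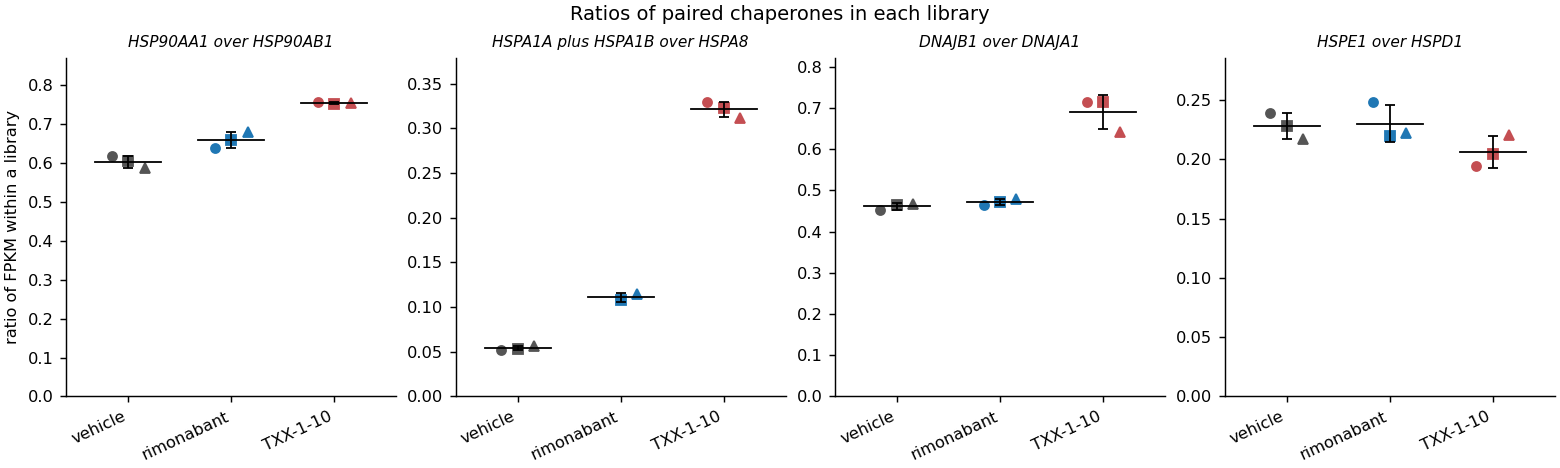
Ratio of FPKM within each library (vertical axis, from 0) for 4 pairs of chaperones in the vehicle, rimonabant and TXX-1-10 groups; symbols are replicates, and bars are mean ± SD. The inducible over constitutive HSP70 ratio and the HSP90AA1 over HSP90AB1 ratio climb from vehicle to rimonabant to TXX-1-10, and the HSPE1 over HSPD1 ratio overlaps between groups.

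Another 109 genes of the chaperone network, in 9 lists, were read in the same fit, and 70 of them were in all 9 gene lists with a mean of at least 1 FPKM. Under TXX-1-10 17 rose and 28 fell, 64.3% in all beside 74.4% of all genes tested, with a median log2 fold change of -0.075. Under rimonabant 20 rose and 8 fell, 40.0% in all beside 48.9% of all genes, with a median of 0.075. The TXX-1-10 split depends on the setting: it was 24 and 19 with TMM, 25 and 21 with DESeq2, 24 and 24 with the length offset, and 16 and 38 without the 2 libraries that stood apart. The median under TXX-1-10 turned to 0.023 with TMM and 0.025 with DESeq2. Of the 45 calls under TXX-1-10, 10 were lost in at least 1 of these 4 settings, as were 6 of 47 between the compounds and 0 of 28 under rimonabant, and none changed sign. The rimonabant split was 21 and 19 without the 2 libraries, with a median of -0.0039.

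The counts of each list below stand beside these shares of all genes tested: 30.5% higher and 43.8% lower under TXX-1-10, and 23.7% and 25.2% under rimonabant. Between TXX-1-10 and rimonabant the shares were 25.1% and 39.4%. No list was tested as a set. Among the heat shock factors and their regulators, 4 of 5 rose under TXX-1-10 and 2 of 5 under rimonabant. Without the 2 libraries that stood apart 3 rose and 1 fell under TXX-1-10. HSF1, the main heat shock transcription factor, had 23.8, 25.9 and 28.0 FPKM under vehicle, 28.5, 24.7 and 26.5 with rimonabant, and 30.6, 29.8 and 32.6 under TXX-1-10. It rose by 0.26 ± 0.0728 (log2) under TXX-1-10 (adjusted p = 0.00883), and rimonabant gave 0.036 (adjusted p = 0.714). IER2, an immediate early gene, rose by 1.01 and 0.53 under TXX-1-10 and rimonabant, and JMJD6 by 0.61 and 0.38. IER5 rose by 0.23 under TXX-1-10, a call lost in 1 of the 4 other settings compared. In the 8 libraries HSF2 gave -0.031 (adjusted p = 0.695) and 0.12 (adjusted p = 0.200), HSF4 rose by 0.32 under TXX-1-10, and DEDD2 rose by 1.44 and 0.52.

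Of the other HSP70 and HSP110 genes in all 9 lists, 2 of 3 fell under TXX-1-10, HSPA14 (ENSG00000284024) by 0.51 and HSPA4 by 0.19 (log2). The fall of HSPA4 was lost with TMM. A second gene entry named HSPA14 (ENSG00000187522) fell by 0.37 in the 8 libraries. HSPA4L rose by 0.39 under rimonabant. HSPA6, a strictly stress-inducible HSP70, is in 7 lists, was not tested, and is named after its values were seen. It had 12 and 8 counts (0.296 and 0.196 FPKM) in the 2 vehicle libraries that list it, 46 and 57 counts (1.03 and 1.30 FPKM) with rimonabant, and 362, 312 and 382 counts (7.92, 7.15 and 8.75 FPKM) under TXX-1-10. The 3 groups did not overlap among the libraries that list it. Reads of its close copy HSPA7 could be split with it. HSPA2, another gene of this list with few reads and no test, went the other way. It had 69 and 41 counts in the 2 vehicle libraries that list it. The counts were 20 and 29 with rimonabant, and 6 and 9 under TXX-1-10.

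Of 9 other J proteins, 3 rose and 1 fell under TXX-1-10, and 5 rose and 1 fell under rimonabant. DNAJB2, which passes clients on to the proteasome, had a mean of 5.96 FPKM under vehicle, 12.4 under rimonabant and 25.3 under TXX-1-10, log2 fold changes of 1.05 ± 0.0690 and 2.09 ± 0.0689, and a difference between the compounds of 1.03 ± 0.0652 (adjusted p = 4.54e-07 in edgeR). DNAJC13 fell by 0.43 and 0.36, and DNAJB6 and DNAJC5 rose by 0.14 and 0.11 under TXX-1-10.

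Of 7 nucleotide exchange factors and HSP70 cofactors, 2 rose and 2 fell under TXX-1-10, BAG2 by 0.77 and SGTA by 0.23 downwards, and BAG6 and ST13 by 0.20 and 0.19 upwards. BAG3, a cofactor known as an HSF1 target and named after its values were seen, gave 0.11 (adjusted p = 0.0705) in the edgeR fit under TXX-1-10. Its FPKM was 56.8 to 58.5 under vehicle, and both compounds lay above, at 59.9 to 65.8 (rimonabant) and 60.3 to 65.5 (TXX-1-10). The fall of SGTA was lost in 2 of the 4 other settings, and the split was 3 and 1 with TMM and with DESeq2. It was 3 and 2 with the length offset, and 2 and 3 without the 2 libraries that stood apart.

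Of 17 HSP90 co-chaperones, 2 rose and 7 fell under TXX-1-10, and 3 rose and 3 fell under rimonabant. The TXX-1-10 split was 5 and 3 with TMM, 5 and 4 with DESeq2, 4 and 4 with the length offset, and 2 and 12 without the 2 libraries that stood apart. FKBP5, an immunophilin that acts on steroid receptors, had the largest change, from 23.1 FPKM under vehicle to 13.5 under rimonabant and 8.06 under TXX-1-10, and fell by 1.52 ± 0.0688 under TXX-1-10 (log2, adjusted p = 2e-08). NUDCD1 fell by 0.92 and the phosphatase PPP5C by 0.67, while CHORDC1 rose by 0.41. Under TXX-1-10 against rimonabant 11 of the 17 were lower and 3 higher. That split was 8 and 3 with TMM, 9 and 3 with DESeq2, and 9 and 4 with the length offset. Without the 2 libraries that stood apart it was 11 and 4.

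The cytosolic chaperonin TRiC, which folds actin and tubulin, fell in each of its subunits under TXX-1-10. The 8 genes (TCP1, CCT2 to CCT8) fell by 0.34 to 0.65 on the log2 scale under TXX-1-10, and all 8 were also lower than under rimonabant. CCT7, for example, had a mean of 113 FPKM under vehicle and 72.0 under TXX-1-10, and fell by 0.65 ± 0.0792 (adjusted p = 3.13e-05). All 8 also fell under TXX-1-10 with TMM, DESeq2 and the length offset. Under rimonabant their log2 fold changes ran from -0.20 to 0.023, none passed in edgeR, and 1 had an unadjusted p under 0.05. Of the 8, 1 fell under rimonabant with TMM, 2 with DESeq2, 4 with the length offset and 6 without rimonabant replicate 1 and TXX-1-10 replicate 3. Of the prefoldin genes, which hand clients to TRiC, PFDN2 rose by 0.63 under TXX-1-10 and PFDN1 fell by 0.28.

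Of 5 mitochondrial chaperones, 1 rose and 4 fell under TXX-1-10. The split was 1 and 3 with TMM, DESeq2 and the length offset, and 1 and 4 without the 2 libraries that stood apart. The fall of DNAJA3 (0.12 on the log2 scale) was lost in 3 of these 4 settings. TRAP1, the mitochondrial HSP90, fell by 1.04 (log2), HSPD1 by 0.29 and GRPEL1 by 0.30, whereas HSPA9, the mitochondrial HSP70, rose by 0.58. HSPD1 and HSPE1, which form 1 chaperonin, thus fell together.

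Of 10 chaperones of the endoplasmic reticulum, 3 rose and 2 fell under TXX-1-10, and 4 rose and 1 fell with TMM and with DESeq2. HSPA5 (BiP), the HSP70 of that compartment, had 137 FPKM under vehicle, 157 under rimonabant and 326 under TXX-1-10, and rose by 1.24 ± 0.0607 (log2) in TXX-1-10-treated cells (adjusted p = 3.48e-08) and by 0.20 ± 0.0600 under rimonabant (adjusted p = 0.0218). HYOU1 and HSPA13 rose by 0.43 and 0.25 and SERPINH1 fell by 0.33. In the 8 libraries DNAJB9 rose by 2.30 and 1.19 under TXX-1-10 and rimonabant. In the same libraries the small heat shock protein gene HSPB8 rose by 2.15 and 1.23, unlike HSPB1. HSPB11 of the same list fell there by 0.99 under TXX-1-10, from a mean of 11.8 FPKM under vehicle to 5.96.

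**Figure D4:**
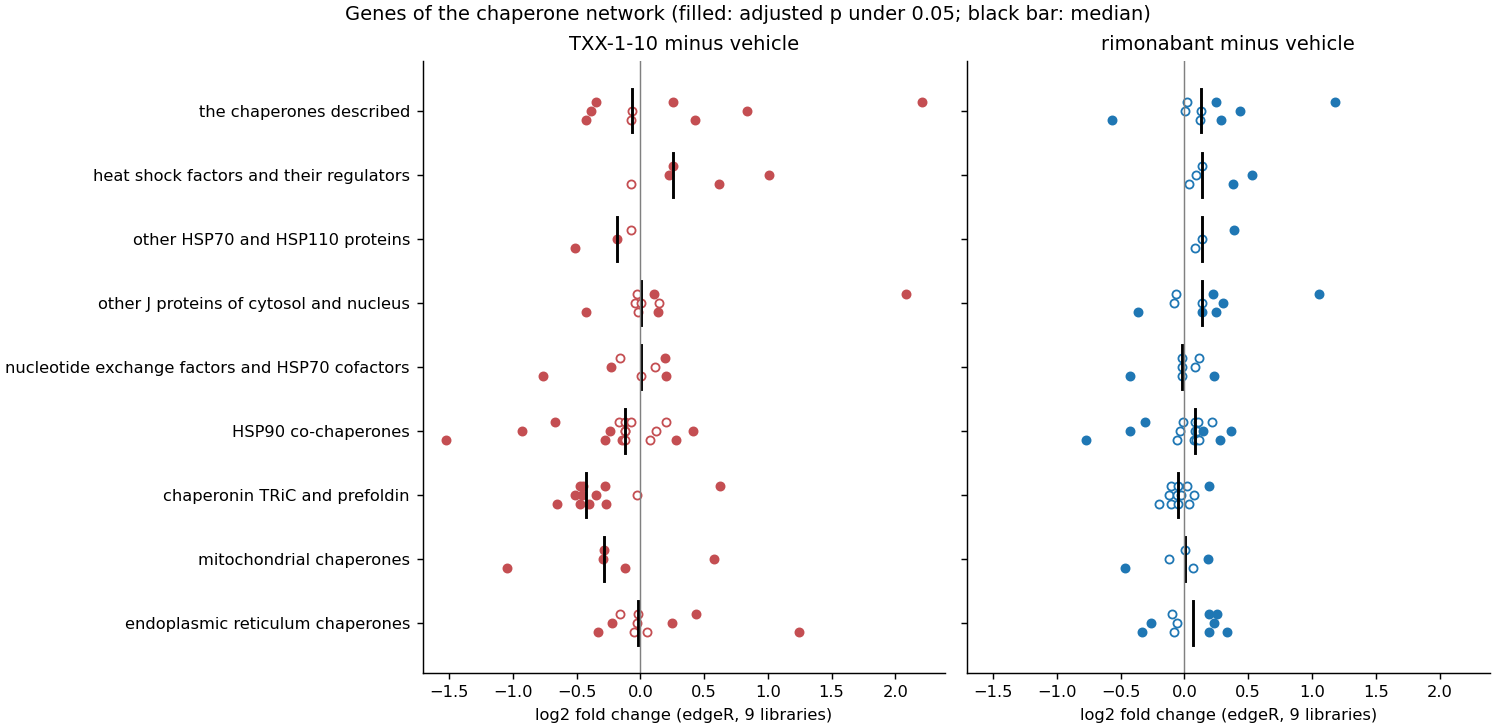
Log2 fold change (horizontal axis) of each tested gene of the chaperone network against vehicle under TXX-1-10 (left, red) and rimonabant (right, blue), by gene list, without the list of small heat shock proteins; filled points passed an adjusted p of 0.05 and black bars are medians. The list with TRiC lies at a median of -0.43 under TXX-1-10 and -0.052 under rimonabant.

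The genes whose log2 counts, scaled to the library total, over the 9 libraries were most like those of 3 chaperones are given as a description. For DNAJB1 they were WDR45, SARS, RBCK1, UPP1 and HK1 (Pearson's r of 0.997 to 0.999). For HSPA8 they were COPS3, SELENOT, MT-ND1, FAM20B and MRPL13 (0.992 to 0.994). For HSP90AA1 they were UBE2V2, USP14, TMCO1, ASNSD1 and the co-chaperone CACYBP (0.973 to 0.988). The 9 points fall into 3 treatments and share library totals and the length pattern of the 2 libraries that stood apart. Among the chaperones themselves, HSPA1B had an r of 0.972 with DNAJB1, HSPA8 had 0.970 with HSP90AB1 and 0.928 with HSPE1, and HSPA1B and HSPA8 had -0.648.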

How the data were processed

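RNA was measured in 9 libraries. According to the paper and the submitters' processing notes, mRNA was selected with oligo(dT) beads, made into NEBNext Ultra libraries and sequenced on Illumina, and HISAT2 2.0.5 and featureCounts 1.5.0-p3 were used. The strand setting is not given in the sources used here. Per the file headers, the authors deposited for each gene a raw read count and an FPKM, the count per kilobase of gene length, scaled to a library total. That total (17078370 to 19277808) was recovered and used as library size. Genes listed in all 9 files with a mean FPKM of at least 1 entered 1 fit in edgeR 4.0.16 (R 4.3.3) over the 3 groups, with no covariate. HSPA1A was tested over the 8 libraries that list it. On simulated counts of TXX-1-10 against vehicle, 200 of 200 genes changed 3-fold among 4236 were recovered past a fold change of 2. By adjusted p alone, 7 unchanged genes also passed. The simulated counts had 1 common spread, no length pattern and no small changes, so they cannot show how reliable the calls of small changes are. Coordinates were those of GENCODE 29 (GRCh38), with the same start and end for 27612 of 27615 genes. From the network lists up to 4 genes a list and comparison were named, by size of change among those that passed, plus HSF1, HSF2 and partners in ratios. A gene that this rule names is not reported here. The chaperones and the lists were chosen with earlier results of these data known. TMM, DESeq2 1.42.0, limma 3.58.1 on log2(FPKM + 1) and log2(FPKM + 0.1), other filters, a length offset, a replicate block and left-out libraries were tried. Ratios were compared with exact permutation tests in scipy 1.17.1.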

Additional observations from a re-analysis of the deposited data

How the results depend on the processing

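The number of chaperones that passed was 7 to 9 for TXX-1-10 against vehicle, 5 to 7 for rimonabant against vehicle and 6 to 8 between the compounds over all alternatives, each within 1.5 times the reported 7, 5 and 7. The network counts ran from 36 to 64, 21 to 40 and 41 to 54. Of 648 log2 fold changes recomputed, 604 kept their direction and their side of the threshold, 12 came past it, 4 were lost and 28 changed sign. Those of HSPA1A, HSPA1B and DNAJB1 kept both throughout. HSPA1A under rimonabant ran from 0.59 to 1.16 with a library left out. The sign changed for genes close to 0, and the cause was not tested. For TXX-1-10 against vehicle, HSP90AA1 turned to 0.034 (TMM), 0.035 (DESeq2), 0.0036 (length offset) and 0.0035 (length offset with replicate block), and HSPB1 to 0.022, 0.023, 0.075 and 0.076. Between the compounds HSPH1 turned to 0.072, 0.073, 0.017 and 0.016, and ran from -0.052 to 0.020 with a library left out. DNAJA1 ran from -0.066 to 0.057 there and was -0.016 without rimonabant replicate 1 and TXX-1-10 replicate 3. For rimonabant against vehicle HSP90AB1 turned to -0.0056 (length offset), -0.0061 (length offset with replicate block) and -0.036 (without the 2 libraries together, and in both fits of 8 libraries), and ran from -0.036 to 0.036 with a library left out. HSPE1 turned to -0.10 in those 3 fits and ran from -0.10 to 0.086. The HSPE1 over HSPD1 ratio under rimonabant against vehicle ran from -0.072 to 0.042 on the log2 scale by medians with a library left out. Ratios of counts in place of FPKM give the same differences for pairs of single genes by construction. For HSPA1A plus HSPA1B over HSPA8 they gave 2.5662, 1.0343 and 1.5319 (log2) in place of 2.5664, 1.0339 and 1.5325.

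Replicate numbers are shared between groups, and same-numbered libraries of the compounds deviated with r of -0.789, 0.828 and -0.614, so the numbers were not taken as pairs. With the replicate number as a block, 7, 5 and 7 chaperones passed, as without it. HSPA1A rests on 181 counts in its lowest library, which limits its precision more than that of the others.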
